A study of Mus musculus with 38 samples.

Results

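Promoters of the peroxisome proliferator-activated receptors (PPAR) and of mitochondrial fatty acid oxidation were followed through fasting-induced torpor in the mouse soleus, a slow postural muscle of the lower leg. The members are the CAGE clusters whose highest peak lies within 500 bp, on the same strand, of an annotated 5′ end of Ppara, Ppard, Cpt1b, Cpt2, Acadl, Acadm, Acadvl, Hadha, Hadhb or Acaa2. All 10 genes had such a cluster, and Acadm had 2, so the members are 11 of the 10819 clusters of the table. CAGE (cap analysis of gene expression) sequences the capped 5′ ends of RNA, and each capped RNA is read as 1 tag whatever its length, so no scaling by length is needed. Levels of some promoters differed between the experiments in groups of the same name, so levels of different genes are set side by side only within an experiment. The median library held 26580286.5 tags in clusters in experiment #1 and 11281870 in experiment #2. The study names a NextSeq or a HiSeq platform for its libraries. The part of these differences in the levels was not tested.

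Each of the 38 libraries came from 1 male C57BL/6J mouse of about 8 weeks, sampled at ZT 22, that is, 22 h after lights on. In experiment #1, 4 Pre mice had food on day 1, 8 Mid mice were without food on day 2, the time of torpor, and 4 Post mice had their food back on day 3. The other groups of day 2 were 4 HiT mice, fasted at an ambient temperature of 32 °C, 4 Fed mice, which kept their food, and 4 Dep mice, which were fasted and gently touched whenever oxygen consumption began to drop. Torpor was thus prevented in the HiT and Fed mice and interrupted in the Dep mice. The study reports that metabolic rates varied widely among these Mid mice, and takes them to be in torpor or between bouts of it. It found the metabolism of the Dep mice close to that of the Mid mice not in torpor. All mice had a temperature sensor implanted in the abdomen and were kept 1 to a chamber. Experiment #2 was an independent set of 2 Pre, 5 Mid and 3 Post mice. The labels conflict on food: the condition given for the Fed samples is starvation and the design text gives the HiT mice food, whereas the sample titles and the methods of the study, followed here, have the Fed mice fed and the HiT mice fasted. The groups differ in more than torpor: HiT to Mid changes the ambient temperature along with torpor, and Fed to Mid changes food along with torpor.

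PPARα (Ppara) and PPARδ (Ppard) are nuclear receptors that bind fatty acids and, paired with a retinoid X receptor, activate genes of fatty acid use. In fasted muscle, fatty acids enter mitochondria as acylcarnitines. CPT1B, on the outer membrane, makes the acylcarnitine and CPT2, on the inner membrane, turns it back into acyl-CoA. The acyl-CoA dehydrogenases, ACADVL, ACADL and ACADM for very long, long and medium chains, start each round of beta-oxidation. The mitochondrial trifunctional protein, made of HADHA and HADHB subunits, carries out the remaining steps on long chains, and the thiolase ACAA2 cleaves off acetyl-CoA.

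The promoter sequences are shown for the receptor gene with the largest change, for its relative that passed no test, for Cpt2 and Acadl, which rose from the Pre to Mid, and for Acadvl, which holds a receptor half-site. They are RefSeq windows of the build GRCm38.p6 (the mm10 assembly), from 250 bases before to 50 after the RefSeq start, 5′ to 3′ on the strand of the gene, and capitals mark each match to a motif searched. Windows of 8 members were matched, Ppara, Ppard, Cpt2, Acadl, Acadm, Acadvl, Hadha and Hadhb, and Cpt1b and Acaa2 were not matched.
Ppara, chr15:85735526-85735825, plus strand: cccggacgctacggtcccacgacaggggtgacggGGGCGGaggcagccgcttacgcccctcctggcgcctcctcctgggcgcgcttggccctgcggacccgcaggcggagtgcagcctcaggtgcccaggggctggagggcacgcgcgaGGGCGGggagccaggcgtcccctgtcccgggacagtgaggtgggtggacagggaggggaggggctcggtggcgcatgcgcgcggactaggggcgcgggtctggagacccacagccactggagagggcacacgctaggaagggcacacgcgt
Ppard, chr17:28232504-28232803, plus strand: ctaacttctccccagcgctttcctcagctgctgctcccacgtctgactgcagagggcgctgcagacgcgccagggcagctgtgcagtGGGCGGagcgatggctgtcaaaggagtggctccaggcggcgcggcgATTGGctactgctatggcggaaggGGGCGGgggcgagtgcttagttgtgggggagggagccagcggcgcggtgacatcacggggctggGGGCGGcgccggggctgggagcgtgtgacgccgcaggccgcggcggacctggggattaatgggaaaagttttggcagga
Cpt2, chr4:107923540-107923839, minus strand: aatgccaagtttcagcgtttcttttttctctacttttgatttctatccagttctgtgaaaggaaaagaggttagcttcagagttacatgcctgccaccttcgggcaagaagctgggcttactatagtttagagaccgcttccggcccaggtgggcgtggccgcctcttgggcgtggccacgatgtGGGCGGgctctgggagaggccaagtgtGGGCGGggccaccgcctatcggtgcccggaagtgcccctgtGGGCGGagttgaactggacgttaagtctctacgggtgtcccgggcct
Acadl, chr1:66863260-66863559, minus strand: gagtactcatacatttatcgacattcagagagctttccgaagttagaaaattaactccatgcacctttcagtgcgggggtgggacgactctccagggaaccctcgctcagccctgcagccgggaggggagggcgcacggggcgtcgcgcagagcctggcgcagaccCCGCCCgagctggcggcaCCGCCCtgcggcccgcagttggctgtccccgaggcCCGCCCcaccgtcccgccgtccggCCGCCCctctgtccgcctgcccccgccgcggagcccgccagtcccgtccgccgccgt
Acadvl, chr11:70015379-70015678, minus strand: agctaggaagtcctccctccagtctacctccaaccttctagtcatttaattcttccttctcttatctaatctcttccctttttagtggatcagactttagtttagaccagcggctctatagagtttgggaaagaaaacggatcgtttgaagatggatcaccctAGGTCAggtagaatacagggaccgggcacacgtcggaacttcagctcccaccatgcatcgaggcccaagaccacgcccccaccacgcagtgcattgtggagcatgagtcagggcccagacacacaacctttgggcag

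The motifs were searched on both strands. The DR1, a direct repeat of AGGTCA with 1 base between the copies and the consensus site of PPAR with its partner, was found in none of the 8 windows, either exactly or with at most 2 mismatches, and 0.03996% and 3.88% of 32534 RefSeq windows of mouse genes hold it so. The half-site AGGTCA, which is part of the DR1 and of the next motif, was found in Acadm and Acadvl, and in 16.3% of all windows. The oestrogen-related receptor element TCAAGGTCA (0.412% of windows) and the TATA box TATAAA (13.6%) were in none of the 8 windows. The GC box CCGCCC was in 6 members, Ppara, Ppard, Cpt2, Acadl, Hadha and Hadhb, and in 35.9% of all windows. The Hadha and Hadhb windows overlap, and the only GC box of Hadha is the same site as a GC box of Hadhb. CCAAT was in Ppard, and in 37.4% of all windows. The Ppara window has a GC content of 74.7%, higher than 95.8% of all windows, whose median is 53.0%. Sites further than these windows from the start were not searched.

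The CAGE peak of Ppara is at 85735788 on chromosome 15 (mm10), 12 bp downstream of an annotated 5′ end. The cluster of Cpt1b is broad, with 1061 bp, and wider than that of 97.8% of all clusters. The peaks of Hadha, at 30154979 on the minus strand of chromosome 5, and of Hadhb, at 30155290 on the plus strand, lie head to head. The main Acadm peak is at 153944446 on chromosome 3, on the minus strand and 197 bp downstream of the RefSeq start, so it lies outside the sequence window searched. The additional cluster of Acadm, with its peak at 153938604, lies inside the gene near the annotated 5′ end of a transcript with a retained intron. It had between 9 and 283 tags per library, whereas every other member had at least 177 tags in every library.

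The libraries held between 9359994 and 39176649 tags in clusters, of which the members took between 0.161 and 0.401%. Levels are given in CPM, the cluster tags of each library scaled to a common total after TMM normalization within an experiment, because the 10 largest clusters took between 15.1 and 40.3% of a library and the TMM factors of experiment #1 ran from 0.679 to 1.21. Tests are edgeR's quasi-likelihood F test with Benjamini-Hochberg FDR over all clusters, and a promoter was called at an FDR below 0.05. All 5 muscle fibre markers searched were present (Acta1, Ckm, Mb, Ttn and Des), with a summed level of 10525 to 23095 TPM in experiment #1. Of 8 macrophage markers 7 had a cluster, and their summed level was 143 to 430 TPM in the HiT libraries and at most 99.9 TPM in the other libraries of experiment #1, and its part in the HiT results below was not tested. The 7 of 8 slow fibre markers with a cluster summed to 6178 to 11958 TPM in HiT and 10347 to 17360 TPM in the other groups of that experiment. The 9 fast glycolytic fibre markers summed to 11993 to 20758 TPM in HiT and 16169.5 to 27839 TPM in those groups. For the 5 muscle fibre markers the sums were 10525 to 19379 TPM and 15319 to 23095 TPM. The HiT ranges thus reached lower for slow and fast markers alike, but they overlapped those of the other groups. The HiT median was below the Dep median for slow (10066 and 11630 TPM) and fast markers (18612 and 20644 TPM). It was not for the 5 muscle fibre markers (16164 and 15959 TPM). These TPM sums are without TMM. In whole muscle, fewer cells of a type and less RNA per cell cannot be told apart.

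Ppara, the receptor gene itself, was the member with the largest differences between groups. It rose 2.56-fold between the Pre and Mid mice and fell back in the Post mice. Its level in the Dep mice was close to that of the Mid mice, whereas the HiT and Fed levels were not called against the Pre level. The 4 Pre libraries had 23.0, 26.2, 30.4 and 30.8 CPM. The 8 Mid libraries lay between 55.5 and 93.8 (median 68.6) CPM, and the 4 Post libraries had 20.5, 21.0, 23.0 and 24.9 CPM. Every Mid library was above every Pre and every Post library. On the log2 scale the Mid level was higher than the Pre level by 1.36 (SE 0.13, edgeR FDR = 5.96e-08), and the change to the Post level was -1.66 (SE 0.13, edgeR FDR = 1.96e-09). Post and Pre libraries overlapped, with a log2 difference of -0.30 (95% interval -0.60 to -0.0046) that was not called (edgeR FDR = 0.380).

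The HiT and Fed mice were sampled on day 2 like the Mid mice, without torpor. The 4 HiT libraries, also fasted, had 28.3, 31.9, 31.99 and 32.5 CPM, and the 4 Fed libraries had 24.8, 31.1, 32.9 and 33.7 CPM. Both groups lay below all 8 Mid libraries and overlapped the Pre libraries. From the HiT to Mid the log2 fold change was 1.18 (SE 0.13, edgeR FDR = 7.81e-08), and from the Fed to Mid it was 1.21 (SE 0.13, edgeR FDR = 2.33e-07). The difference from the Pre to HiT was 0.18 (95% interval -0.12 to 0.47, edgeR FDR = 0.366), and that from the Pre to Fed was 0.15 (95% interval -0.15 to 0.45, edgeR FDR = 0.539).

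The 4 Dep libraries, from fasted mice kept from settling into torpor, had 61.3, 65.5, 88.6 and 94.99 CPM for Ppara. They overlapped the Mid libraries and lay above every Pre, Post, HiT and Fed library. The log2 difference from the Mid to Dep was 0.13 (95% interval -0.12 to 0.38, edgeR FDR = 0.569), and that from the Pre to Dep was 1.49 (edgeR FDR = 9.31e-08). A comparison of the HiT with the Dep mice, 2 fasted groups that differ in temperature and handling, was added after these levels were seen, and gave 1.32 (edgeR FDR = 3.32e-07). By mean level the order was Dep, Mid, HiT, Fed, Pre and Post, with a gap between the Mid and HiT groups and overlap between neighbours elsewhere.

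In experiment #2, the Ppara level was 18.4 and 25.9 CPM in the Pre, 41.2, 42.8, 43.2, 44.7 and 45.3 CPM in the Mid and 13.9, 14.9 and 19.6 CPM in the Post libraries. Again all Mid libraries were above all Pre and Post libraries. The log2 fold changes were 0.97 from the Pre to Mid (SE 0.15, edgeR FDR = 0.00415) and -1.44 from the Mid to Post (SE 0.13, edgeR FDR = 9.23e-05). The rise was not called without Pre replicate 6, which leaves 1 Pre library. The rise differed from that in experiment #1 by -0.38 on the log2 scale (95% interval -0.82 to 0.05), a difference between the experiments that was not called (edgeR FDR = 0.998).

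Ppard, the relative of Ppara that is expressed in most tissues, was called in none of the comparisons. Its Pre libraries had 11.98, 13.5, 13.9 and 14.5 CPM and its Mid libraries lay between 10.7 and 13.8 (median 12.2) CPM. The difference from the Pre to Mid was -0.13 on the log2 scale (95% interval -0.33 to 0.08, edgeR FDR = 0.349), below the interval of Ppara, 1.09 to 1.63. From the Fed to Mid it was -0.25 (edgeR FDR = 0.0511), where the Fed libraries had 12.5, 12.9, 13.5 and 19.9 CPM. Without Fed replicate 1, the library at 19.9 CPM, it was -0.07, and it was called lower without Fed replicate 3 or 4 or Mid replicate 1 (-0.32 to -0.27) or with upper-quartile factors. Within a library, the ratio of Ppara to Ppard tags was 4.53 to 8.01 in the Mid and 4.34 to 8.25 in the Dep mice. It was 1.51 to 2.95 over the Pre, Post, HiT and Fed mice, so these ranges did not overlap. In experiment #2 the ratio was 1.35 to 1.54 in the Mid, 0.641 and 0.916 in the Pre and 0.563 to 0.701 in the Post libraries. The experiments differ in the level itself: over the Pre, Mid and Post libraries, Ppard had 9.70 to 14.5 TPM in experiment #1 and 23.5 to 30.4 TPM in experiment #2. The muscle fibre markers, too, had a summed level of 46015 to 65737 TPM in experiment #2, above that of experiment #1, and the part of such library differences in the level of Ppard was not tested.

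Of the 11 member clusters, 4 rose and 0 fell from the Pre to Mid in experiment #1, where 15.4% of all 10776 clusters tested rose and 14.8% fell. Beside Ppara these were Cpt2, Acadl and Hadha. Without Pre replicate 1 or 2, the count was 2 (Ppara and Cpt2). The changes of the enzymes were small: the median log2 fold change of the 8 enzyme promoters was 0.19, beside 0.01 over all clusters. On return of food, from the Mid to Post, 0 rose and 3 fell (Ppara, Cpt2 and Acadl), where 17.5% of all clusters rose and 17.5% fell, and the median of the enzymes was -0.16. No member was called from the Pre to Post, where 1.05% of clusters rose and 0.798% fell. There, 2 members had an unadjusted p under 0.05, and DESeq2 called 0 as well.

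Of the carnitine palmitoyltransferases, Cpt2 rose against the Pre mice in each of the 3 fasted groups, Mid, HiT and Dep. Cpt1b was called in none of these 3 comparisons, and the difference between the genes was not tested. Cpt2 had 108, 111, 115 and 117 CPM in the Pre libraries and lay between 116 and 163 (median 145) CPM in the Mid libraries, of which 7 of 8 were above every Pre library. It rose by 0.35 on the log2 scale (SE 0.08, edgeR FDR = 0.00157) and changed by -0.40 from the Mid to Post (SE 0.08, edgeR FDR = 3.29e-04). Unlike Ppara, it had its highest mean in the HiT mice, with 119.5, 153, 159 and 161 CPM, all above the Pre libraries. The rise from the Pre to HiT was 0.39 (edgeR FDR = 0.00140), and HiT and Mid libraries overlapped (log2 difference -0.05, 95% interval -0.21 to 0.11). The Fed libraries had 116, 117, 117 and 119 CPM, and the rise from the Fed to Mid was 0.29 (edgeR FDR = 0.00597). With library size alone in place of TMM, none of these Cpt2 differences was called, and that from the HiT to Mid was 0.06.

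Cpt1b, whose enzyme is held back by malonyl-CoA, had 129.8, 133, 134 and 163 CPM in the Pre libraries and lay between 139 and 182 (median 157) CPM in the Mid libraries. The difference of 0.18 was not called (95% interval 0.01 to 0.35, edgeR FDR = 0.109). Without Pre replicate 4, the library at 163 CPM, it was 0.26 and was called, and with upper-quartile factors Cpt1b was called lower in HiT than in Pre (-0.35). Against the Mid libraries it was lower in both groups in which torpor was prevented, with 110.03, 121, 125 and 138 CPM in HiT and 105, 107, 117 and 140.4 CPM in Fed. The Mid libraries lay above all HiT libraries and overlapped the Fed libraries, and the log2 fold changes were 0.36 from the HiT to Mid (edgeR FDR = 0.00132) and 0.43 from the Fed to Mid (edgeR FDR = 3.02e-04). Tags of Cpt1b per tag of Cpt2 were 0.763 to 0.920 in HiT and 1.16 to 1.40 in Pre, ranges that did not overlap.

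Acadl and Acadvl had the highest levels of the members in every group of experiment #1. Acadl, of the long-chain enzyme, had 706, 713, 720.5 and 793 CPM in the Pre and between 766 and 922 (median 872) CPM in the Mid libraries, of which 6 of 8 were above every Pre library. On the log2 scale it rose by 0.22 from the Pre to Mid (edgeR FDR = 0.0162) and changed by -0.19 from the Mid to Post (edgeR FDR = 0.0342). The rise was not called without Pre replicate 1 or 2. The fall was lost in 8 of 12 fits with 1 library left out (Mid replicate 1, 4, 5, 7 or 8 or Post replicate 1, 2 or 4) and under 5 of 9 other settings, the likelihood ratio test among them. The HiT libraries, at 616, 698, 733 and 744 CPM, and the Fed libraries, at 606, 648, 669 and 696 CPM, were all below the Mid libraries. Acadvl had 487 ± 20.2 CPM in the Pre (SD, n = 4) and 559.5 ± 74.1 CPM in the Mid libraries (n = 8), a difference of 0.20 that was not called (edgeR FDR = 0.0996). From the HiT to Mid it rose by 0.39 (edgeR FDR = 0.00161) and from the Fed to Mid by 0.39 (edgeR FDR = 0.00186).

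Acadm, of the medium-chain enzyme, had its highest mean in the Pre mice. It had 344, 363, 367 and 391 CPM in the Pre, between 286 and 379.96 (median 354) CPM in the Mid and 251, 271, 279.8 and 289.9 CPM in the HiT libraries. All HiT libraries were below all Pre libraries, and the change from the Pre to HiT was -0.42 (SE 0.09, edgeR FDR = 0.00101). From the Pre to Fed it changed by -0.37 (edgeR FDR = 0.0166), where the Fed libraries had 247, 257, 280.2 and 347 CPM, with Fed replicate 3 inside the range of the Pre libraries, and this was not called without Fed replicate 1 or 2. Its difference from the Pre to Mid was -0.09 (95% interval -0.26 to 0.07). The intragenic Acadm cluster was called in no comparison, and it was the member that differed most between experiments, with 0.338 to 1.23 TPM in experiment #1 and 8.70 to 17.3 TPM in experiment #2 over the Pre, Mid and Post libraries. The main Acadm promoter had 236 to 408 TPM and 566 to 741 TPM in the same libraries.

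The subunit genes of the trifunctional protein start head to head, and their tags were unequal. Hadha had 269, 279.6, 282 and 298 CPM in the Pre and between 260.2 and 480.3 (median 349) CPM in the Mid libraries, and rose by 0.32 (SE 0.12, edgeR FDR = 0.0394). This call was lost without Mid replicate 3, 4, 5 or 7 or any of the 4 Pre libraries. Hadhb had 108, 108, 123 and 125 CPM in the Pre and between 112 and 142 (median 129) CPM in the Mid libraries, and its difference of 0.14 was not called (edgeR FDR = 0.192). Pre and Mid libraries overlapped for both genes, and the difference between the 2 changes was not tested. Tags of Hadha per tag of Hadhb were 1.91 to 4.04 in experiment #1 and 1.22 to 1.75 in experiment #2, and within experiment #1 all groups overlapped the Mid range.

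Acaa2, the thiolase gene, differed by -0.10 from the Pre to Mid, which was not called (95% interval -0.30 to 0.10, edgeR FDR = 0.443). It fell from the Pre to Fed, from 202, 207, 211 and 227 CPM to 137, 139.7, 165 and 206 CPM, by a log2 change of -0.39 (edgeR FDR = 0.0303), a call that was lost without Fed replicate 1 or 2 or Pre replicate 1, 2 or 3. Fed replicate 3 overlapped the Pre libraries and the other Fed libraries were below them. In experiment #2 it fell from the Mid to Post by a log2 change of -0.56 (edgeR FDR = 0.0243), with all 3 Post libraries below the Mid libraries, and in experiment #1 this change was -0.12 and was not called (edgeR FDR = 0.375). All 3 Post libraries of experiment #2 were on lane 4 with Mid replicate 13, at 226 CPM, and the other Mid libraries, at 257 to 342 CPM, were on lane 3. With lane as a term the change was -0.18 and was not called (edgeR FDR = 0.644), and the call was also lost with library size alone or without Mid replicate 12, Post replicate 5 or Post replicate 7.

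**Figure D1:**
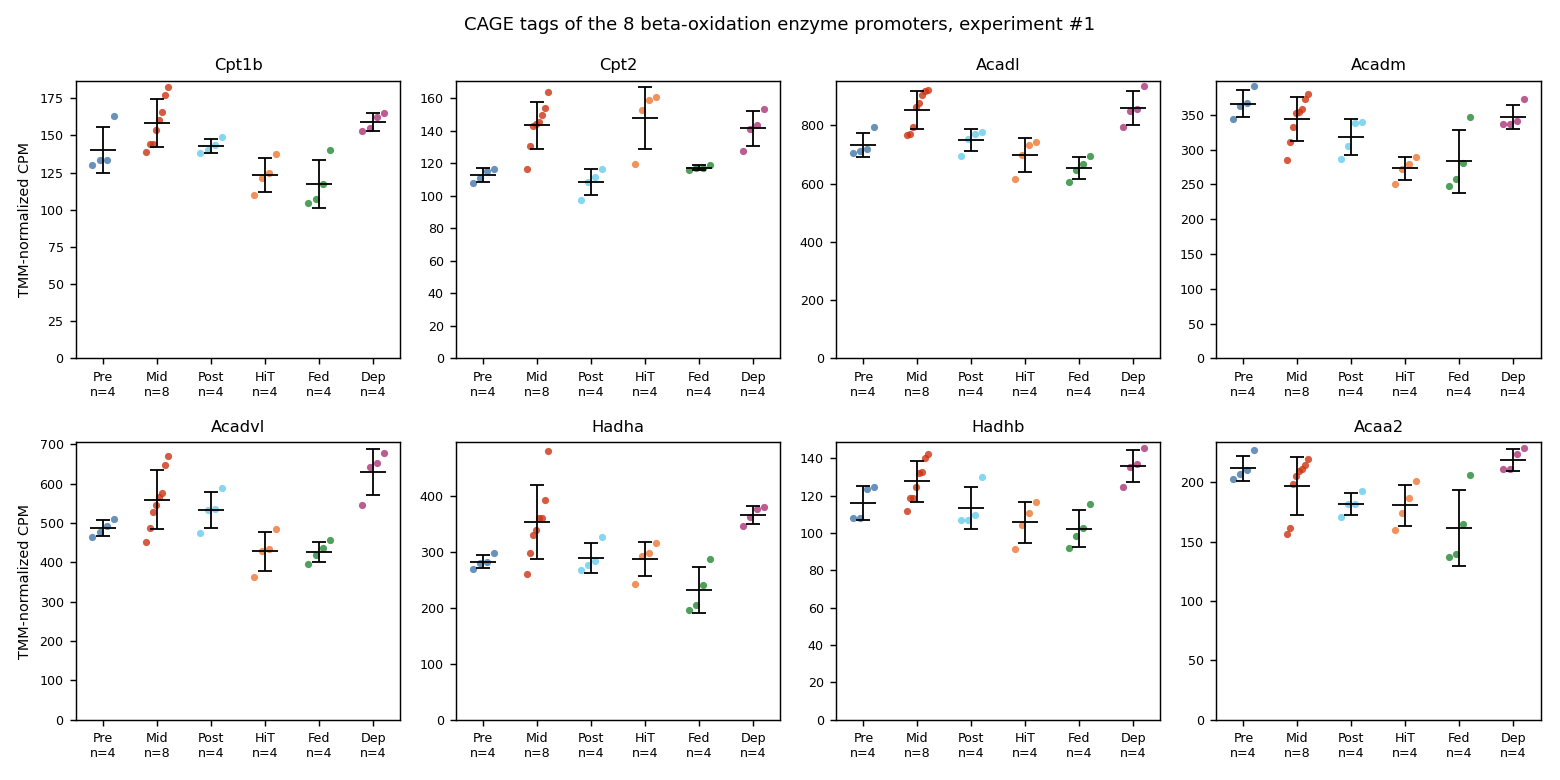
CAGE tags of the 8 enzyme promoters in TMM-normalized CPM (y axes, each from 0) for the 6 groups of experiment #1. Points are libraries of 1 mouse each and bars are the mean ± SD. Most changes are small against the level, the Fed mean is the lowest for 6 of the 8 and the Dep mean the highest for 6 of the 8.

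The comparisons of the Mid mice with the HiT and with the Fed mice held more calls among the enzymes than that with the Pre mice. The median of the 8 enzymes was -0.16 from the Pre to HiT and -0.22 from the Pre to Fed, beside 0.04 and 0.02 over all clusters. From the HiT to Mid, 7 member clusters rose and 0 fell, where 19.2% of all clusters rose and 21.8% fell, and the median of the 8 enzymes was 0.29. The 7 were Ppara, Cpt1b, Acadl, Acadm, Acadvl, Hadha and Hadhb, and 5 rose without HiT replicate 2, which lost Hadha and Hadhb. The Hadha call was also lost without HiT replicate 4, the library with the lowest TMM factor, or Mid replicate 3, 4, 5 or 7, which left 6. From the Fed to Mid, 9 rose and 0 fell, namely Ppara and all 8 enzymes, where 16.6% of all clusters rose and 18.6% fell, and the median of the enzymes was 0.35. With library size alone in place of TMM, 1 rose from the Fed to Mid, and upper-quartile factors gave 8 that rose and 1 that fell (Ppard). The largest enzyme change was that of Hadha from the Fed to Mid, from 196, 205, 241 and 286 CPM in the Fed libraries, with a log2 fold change of 0.60 (edgeR FDR = 3.22e-04). Both comparisons share the Mid libraries.

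Between the Fed and Pre mice, which both had food and were sampled on different days, 0 members rose and 2 fell (Acadm and Acaa2), where 5.88% of all clusters rose and 5.32% fell. Without Fed replicate 1 or 2 neither was called, without Pre replicate 1, 2 or 3 only Acadm was, and without Fed replicate 3 the count was 4. Of the fasted groups against the Pre mice, HiT had 1 member that rose (Cpt2) and 1 that fell (Acadm), where 18.5% of clusters rose and 14.9% fell. Upper-quartile factors gave 1 that rose and 4 that fell there. Dep had 5 that rose against Pre (Ppara, Cpt2, Acadl, Acadvl and Hadha) and 0 that fell, where 13.7% of clusters rose and 12.1% fell, and 3 rose without Dep replicate 1 or 4 or Pre replicate 1, 2 or 3. From the HiT to Dep, 6 rose (Ppara, Cpt1b, Acadl, Acadm, Acadvl and Hadhb), where 11.3% of clusters rose and 15.3% fell. From the Mid to Dep, edgeR called no member, where 1.16% of clusters rose and 0.872% fell. In that comparison 0 members had an unadjusted p under 0.05 and DESeq2 called 0. The 95% interval of the enzyme with the largest difference, Acadvl, was -0.02 to 0.36.

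In experiment #2, 1 member rose from the Pre to Mid (Ppara), where 5.3% of all 10816 clusters rose and 4.44% fell. From the Mid to Post, 0 rose and 3 fell (Ppara, Cpt2 and Acaa2), where 7.73% of clusters rose and 8.65% fell. Without Post replicate 7, or with the sequencing lane as a term, 1 fell (Ppara). The Cpt2 and Acaa2 calls were also lost without Post replicate 5, and that of Acaa2 without Mid replicate 12. Cpt2 had 112, 135, 135, 142 and 151 CPM in the Mid and 96.9, 102 and 105 CPM in the Post libraries, which did not overlap, and its change was -0.41 (edgeR FDR = 0.0173), beside -0.40 in experiment #1. The Cpt2 difference from the Pre to Mid was 0.06 in experiment #2 (95% interval -0.18 to 0.31). The difference between experiments was not called for any member in either change: 0 of 11 at the FDR, 1 of 11 in each at an unadjusted p under 0.05, and 0 by DESeq2. Of all clusters, edgeR called 0% in either direction.

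**Figure D2:**
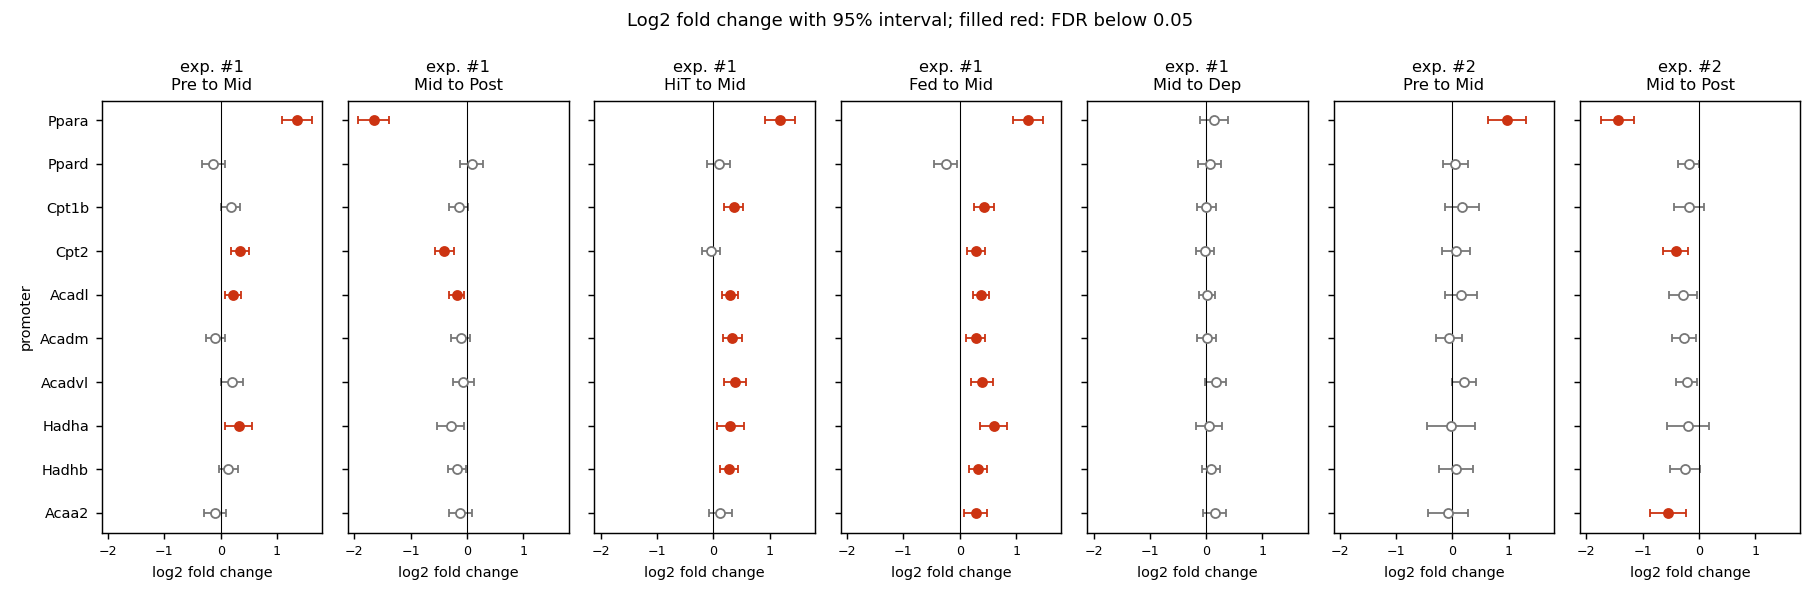
Log2 fold change (x axis) of the 10 main member promoters (y axis) in 5 comparisons of experiment #1 and 2 of experiment #2. Points are edgeR estimates, bars are 95% intervals, and filled red points have an FDR below 0.05. The Ppara change is 0.97 or more in size in every comparison shown except Mid to Dep, and no enzyme change exceeds the 0.60 of Hadha from the Fed to Mid.

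Across the 28 libraries of experiment #1, the median correlation of the enzyme promoters with each other was higher than that with Ppara. Cpt2 was an exception across libraries, where its r with Ppara, 0.64, was above that with 6 of the 7 other enzymes. Over the 28 pairs of enzymes, Pearson's r of the log2 CPM was 0.05 to 0.91 (median 0.72), and after taking out the group means it was 0.21 to 0.88 (median 0.60). Between Ppara and the 8 enzymes r was 0.36 to 0.74 (median 0.63) across libraries and 0.07 to 0.41 (median 0.15) within groups. These are descriptions of 28 libraries that share their scaling and are given with no p. Among 9066 other annotated genes, those most like the mean of the enzymes were Gm13910, Hsdl2, Etfdh, Acat1 and Bnip3, with r of 0.93 to 0.89 in experiment #1 and 0.65 to 0.92 over the 10 libraries of experiment #2. ETFDH passes electrons from the acyl-CoA dehydrogenases to the respiratory chain, and ACAT1 is a mitochondrial thiolase. The genes most like Ppara were Gpr157 (r = 0.97), Gzf1 (r = 0.95) and Ung (r = 0.95), with r of 0.98, 0.90 and 0.92 in experiment #2. For Ppard, r was at most 0.74, for Ogt, and it was -0.47 for the same gene in experiment #2.

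A separate list of genes that PPARs are known to activate in muscle had a larger median change than the 8 enzymes from the Pre to Mid. The list does not set the enzymes apart from PPAR targets, since they are genes of fatty acid use too. Of 9 listed genes with a cluster, 9 rose from the Pre to Mid, with a median log2 fold change of 1.85, and 9 fell from the Mid to Post, beside 15.4% and 17.5% of all clusters. This list, like the others, was chosen with earlier results of these data known. Its counts beside the shares of all clusters are therefore descriptions and no test. Pdk4, a kinase that holds back glucose oxidation, rose from 438 ± 119 CPM in the Pre (SD, n = 4) to 4703 ± 1276 CPM in the Mid mice (n = 8), by 3.42 on the log2 scale (edgeR FDR = 2.05e-08). Acot1, which hydrolyses acyl-CoA, rose by 3.24 (edgeR FDR = 4.14e-08). In the HiT mice, where Ppara was not called against the Pre mice, 8 of these 9 genes rose against the Pre mice, beside 18.5% of all clusters, with a median of 2.47. Pdk4 there was 4551 ± 468 CPM (n = 4), and Acot1 had 40.8 ± 11.9 CPM beside 23.5 ± 8.16 CPM in the Mid mice. Between the HiT and Mid mice, where 19.2% of all clusters rose and 21.8% fell, 2 of the 9 rose, the lipoprotein receptor gene Vldlr (0.71) and the lipid droplet gene Plin5 (0.31), and the median was 0.05. There, 3 fell, the thioesterase genes Acot1 (-0.80) and Acot2 (-0.62) and the lipase inhibitor gene Angptl4 (-1.03). From the Fed to Mid, 7 rose and 0 fell, beside 16.6% and 18.6% of all clusters. In experiment #2, 7 of the 9 rose from the Pre to Mid and 7 fell from the Mid to Post, beside 5.3% and 8.65% of all clusters.

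Partners and coregulators of the receptors were mostly not called: of 14 with a cluster, 3 rose and 1 fell from the Pre to Mid, with a median of 0.13. These shares are near those of all clusters, 15.4% and 14.8%. The coactivator gene Ppargc1a (PGC-1α) had 2 clusters. Values here are those of the cluster with the higher mean TPM, not of the whole gene, and the additional cluster was not examined. The cluster used rose from 6.92 ± 7.73 CPM in the Pre to 190.04 ± 119 CPM in the Mid mice (log2 fold change 4.78, edgeR FDR = 7.07e-06). Its level was 212 ± 42.4 CPM in the Dep, 34.7 ± 10.8 CPM in the HiT and 3.04 ± 2.02 CPM in the Fed mice (SD, n = 4 each). Lpin1, a phosphatidate phosphatase that also acts as a coactivator, rose by 0.63 (edgeR FDR = 0.00696), and Ppargc1b, the relative of Ppargc1a, fell by a log2 change of -0.86 (edgeR FDR = 0.00629). The remaining rise was that of the coactivator gene Ncoa2 (0.34), named after its value was seen. From the HiT to Mid, 7 of the 14 rose and 0 fell, with a median of 0.38, where 19.2% of all clusters rose and 21.8% fell.

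Of the genes of carnitine and malonyl-CoA, 4 of 5 with a cluster rose from the Pre to Mid, beside 15.4% of all clusters, with a median of 0.68. Mlycd, whose enzyme breaks down the malonyl-CoA that holds back CPT1B, rose from 47.1 ± 4.03 to 119.6 ± 45.6 CPM (log2 fold change 1.34, edgeR FDR = 3.97e-05), and the carnitine transporter Slc22a5 rose by 0.92 (edgeR FDR = 1.07e-05). The others, named after their values were seen, were the carnitine-acylcarnitine carrier Slc25a20 (0.46) and Acacb (0.68), whose enzyme makes malonyl-CoA and so acts against Mlycd. In the HiT against the Pre mice, where 18.5% of all clusters rose and 14.9% fell, 3 of the 5 rose and 1 fell (the carnitine acetyltransferase gene Crat, -0.31). From the HiT to Mid 1 of the 5 rose (Crat, 0.42), near the 19.2% of all clusters that rose. Of 7 genes of uptake and activation, 2 rose from the Pre to Mid and 0 fell, the transporters Slc27a1 (0.53, edgeR FDR = 0.0181) and Cd36 (0.43, edgeR FDR = 2.59e-04), with a list median of 0.10. Of all clusters, 15.4% rose in this comparison, so 2 of 7 is not far from the background.

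Among 12 genes listed as other mitochondrial beta-oxidation, 3 rose from the Pre to Mid and 0 fell, with a median of 0.10. Etfdh rose by 0.37 (edgeR FDR = 0.00189), the acyl-CoA dehydrogenase gene Acad11 by 0.37 (edgeR FDR = 0.00471) and the isomerase gene Eci2 by 0.33. Where each listed enzyme acts in the cell was not examined, so the list may hold enzymes that also act outside mitochondria. These 3 of 12 are close to the 15.4% of all clusters. From the Fed to Mid, 7 of the 12 rose and 0 fell, with a median of 0.28, where 16.6% of all clusters rose and 18.6% fell. Of 12 genes of the peroxisomal pathway, 3 rose and 1 fell from the Pre to Mid, with a median of 0.07, close to the 15.4% and 14.8% of all clusters. The peroxisomal bifunctional enzyme gene Ehhadh rose from 3.45 ± 0.390 to 10.5 ± 2.75 CPM (log2 fold change 1.60, edgeR FDR = 3.06e-06), Hsd17b4 rose by 0.49 (edgeR FDR = 7.66e-06), and the transporter gene Abcd2 fell by a log2 change of -0.92 (edgeR FDR = 0.00167). Eci2 was named after its value was seen.

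**Figure D3:**
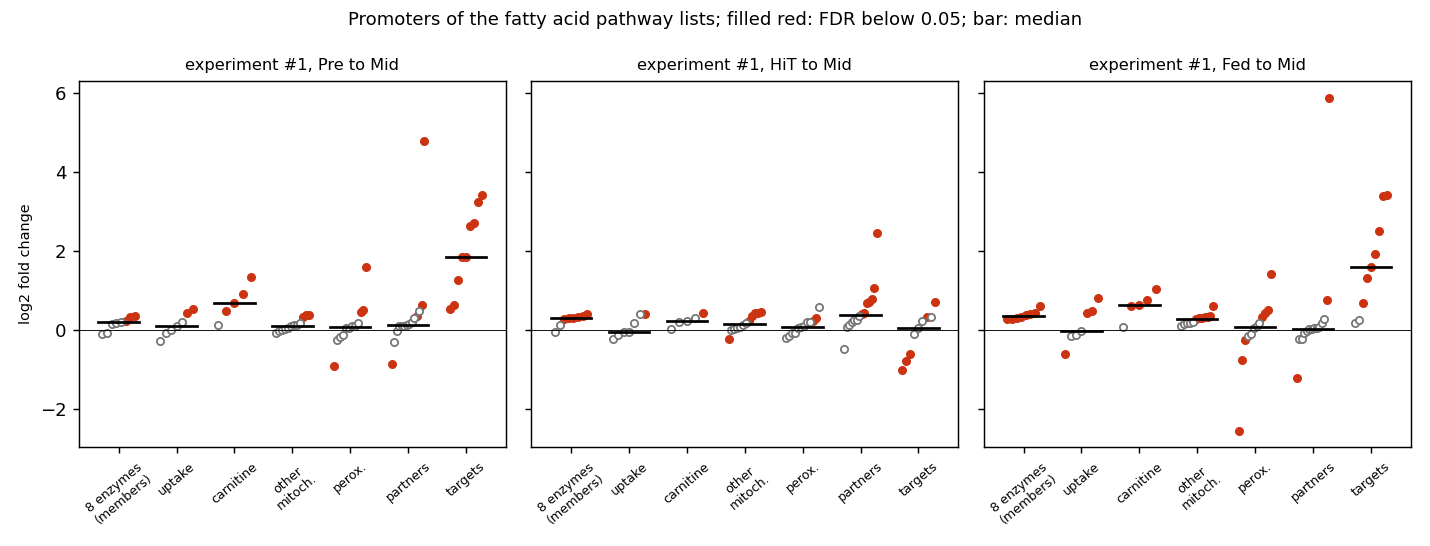
Log2 fold changes (y axis) of the 8 enzyme promoters and of 6 lists of fatty acid genes (x axis) from the Pre to Mid, HiT to Mid and Fed to Mid in experiment #1. Points are 1 promoter per gene, filled red where the FDR is below 0.05, and bars are list medians. The list of PPAR target genes has a median of 1.85 from the Pre to Mid beside 0.05 from the HiT to Mid, whereas the enzymes have 0.19 and 0.29.

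In the windows of these lists, the DR1 with at most 2 mismatches was found in 2 of 7 matched target genes (Plin2 and Ucp3), in 1 of 7 uptake genes (Cd36), in 1 of 4 carnitine genes (Slc25a20) and in 2 of 10 other mitochondrial genes (Echs1 and Etfa). It was found in 0 of 8 peroxisomal genes and 0 of 10 partners. Of all 32534 RefSeq windows 3.88% held it, and lists of 4 to 10 windows are too small to be compared with that share. These genes are named for the match alone.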

How the data were processed

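Soleus RNA of 38 mice was sequenced by nAnT-iCAGE. After trimming, reads were aligned by the authors against mm10 using bwa and hisat2 (versions not given in the sources used here), and start sites were clustered with PromoterPipeline. The deposited counts are tags per cluster and library, without normalization, and the deposited TPM values are the same tags scaled to the total of the library, tags outside clusters included. Every column of per-sample values was used. Clusters were assigned to the nearest GENCODE vM21 5′ end within 500 bp on the same strand. Tags in clusters numbered 9359994 to 39176649 per library. No libraries of a group were duplicates (lowest chi-square per cluster 12.4 over 72 pairs).

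The count tests used edgeR 4.0.16 under R 4.3.3 (TMM, quasi-likelihood F test, all clusters with any tag, Benjamini-Hochberg FDR 0.05), with 28 libraries in experiment #1 (common dispersion 0.0377), 10 in experiment #2 (0.0391) and all 38 for the difference between experiments. SE is the log2 fold change divided by the square root of F. A listed gene with several clusters is represented by the one with the highest mean TPM. The scripts were tested on simulated counts with known changes, all larger than those of the enzymes, so changes of the enzymes' size were not covered. Sequences came from RefSeq windows of GRCm38.p6.

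The members and lists were chosen with earlier results of these data known. The rule for named genes takes every member cluster, and from each of 6 lists the 2 largest rises and falls called from the Pre to Mid, 5 genes most like the enzymes and 3 each for Ppara and Ppard. Alternatives were the likelihood ratio test, DESeq2 1.42.0, RLE or upper-quartile factors, library size alone, filterByExpr, a fit of only the compared groups, the replicate block, all 38 libraries together, sequencing lane in experiment #2, and each library left out in turn. The HiT to Dep comparison was added after seeing the data. Values of 2 listed genes are not reported here.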

Additional observations from a re-analysis of the deposited data

Results flagged for a closer look

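In 77 sets of values (11 clusters in 7 groups of 4 to 8 libraries), 8 had a highest or lowest library whose gap to the next one was large against the range of the group, beyond Dixon's 95% critical value. Chance gives about 1 in 20. All values are TMM-normalized CPM. Ppara was lowest in HiT replicate 1, at 28.3, with the other 3 at 31.9 or above. Ppard was highest in Fed replicate 1, at 19.9, with the next at 13.5, and in Mid replicate 12 of experiment #2, at 33.6, with the next at 29.2. Pre replicate 4 was highest for Cpt1b, at 163, with the next at 134, and for Acadl, at 793, with the next at 720.5. Acadm was highest in Dep replicate 4, at 372, with the next at 340.5. The intragenic Acadm cluster was highest in HiT replicate 4, at 1.61, with the next at 0.758. Hadhb was highest in Post replicate 2, at 129.9, with the next at 109.5.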

How the results depend on the processing

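The Ppara calls from the Pre to Mid, Mid to Post, HiT to Mid, Fed to Mid and Pre to Dep were kept under every alternative and every library left out in experiment #1, with a Pre to Mid change on the log2 scale of 1.21 to 1.36 over 9 alternatives. No called change reversed its sign. The enzyme calls depended more on scaling. With library size alone, which shifted the median of all clusters to -0.18 from the Pre to Dep, -0.13 from the Pre to HiT, -0.12 from the Fed to Mid and 0.11 from the HiT to Mid, members higher were 1 from the Pre to Mid, 1 from the Fed to Mid, 0 from the Pre to HiT, 1 from the Pre to Dep and 2 from the HiT to Dep, and members lower were 1 from the Mid to Post and 0 from the Pre to Fed. Upper-quartile factors gave 2 higher from the Pre to Mid, 3 higher from the Pre to Dep, 4 lower from the Pre to HiT and 1 lower from the Fed to Mid. Fitting only the compared groups gave 2 higher from the Pre to Mid, 2 lower from the Pre to HiT and 0 lower from the Pre to Fed. All 38 libraries together gave 6 lower from the Mid to Post and 2 lower from the Pre to Post. In experiment #2, members lower from the Mid to Post were 5 with DESeq2 and 1 with the sequencing lane as a term. The cause of these differences was not tested.

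Mice with the same number in different groups share only a number: over 60 such pairs in experiment #1 the median correlation of deviations from the group means was -0.01, and 22 pairs were over 0.1. Over 260 pairs with other numbers the median was 0.001, and 101 pairs were over 0.1. With the replicate number as a block, 2 members were higher in Mid than in Pre, 4 than in HiT and 5 than in Fed. Each mouse gave 1 library, so this block pairs no measurements of the same mouse. No such block was fitted in experiment #2, where the Pre and Mid mice share no numbers.

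With each library left out in turn, members higher were 2 to 4 from the Pre to Mid, 5 to 7 from the HiT to Mid, 7 to 9 from the Fed to Mid, 3 to 6 from the Pre to Dep, 6 to 8 from the HiT to Dep, 1 from the Pre to HiT, and 0 to 1 from the Pre to Mid in experiment #2. Members lower were 2 to 4 from the Mid to Post, 0 to 4 from the Pre to Fed, 0 to 1 from the Fed to Mid and 1 to 3 from the Mid to Post in experiment #2, where 1 was left without Post replicate 7. From the Pre to Mid 2 were left without Pre replicate 1 or 2, and from the Pre to Dep 3 were left without Dep replicate 1 or 4 or Pre replicate 1, 2 or 3. Members lower from the Pre to Fed were 0 without Fed replicate 1 or 2, 1 without Pre replicate 1, 2 or 3 and 4 without Fed replicate 3. The intragenic Acadm cluster has too few tags in experiment #1 for a small change to be seen.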
